A study of Homo sapiens with 32 samples.

Results

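The genes of serine, asparagine and one-carbon synthesis described here are ASNS, PHGDH, PSAT1, PSPH, SHMT2, MTHFD2, MTHFD1L, ALDH1L2, PYCR1 and BCAT1, 10 of the 60107 genes in the count table. They were chosen by their expression in these data and taken by symbol, and all 10 passed the filter on low counts in each comparison. The choice names 4 comparisons, without saying which fold changes decided it: U2OS CPT, HEK293T ATM inhibitor, and the even- against the odd-numbered libraries of a HEK293T-like and of a U2OS-like block. Values of the 10 genes in those 4 comparisons are therefore given as a description, with no p-value for any of them, and counts past a threshold are set beside the share of all genes and are not evidence about the set. The comparison of the 2 cell lines in DMSO is not one of these 4 and is tested. Its libraries are the controls of U2OS CPT and of the ATM inhibitor, so that it is not fully independent of the choice. The p-values of this comparison, those of the ratios of related genes included, are therefore not evidence about the set.

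PHGDH, PSAT1 and PSPH are the 3 consecutive enzymes that make serine from a glycolytic intermediate. In mitochondria, SHMT2 splits serine into glycine and a carbon unit carried on folate, MTHFD2 oxidises that unit, MTHFD1L releases it as formate for purine and thymidylate synthesis, and ALDH1L2 oxidises it to carbon dioxide with production of NADPH. ASNS makes asparagine from aspartate and glutamine, PYCR1 carries out the last step of proline synthesis in mitochondria, and BCAT1 moves the amino group of leucine, isoleucine and valine in the cytosol. Most of these genes are known targets of ATF4, a transcription factor that cells translate when amino acids are short or when translation initiation is impaired by stress.

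HEK293T is a human embryonic kidney line that carries the SV40 large T antigen, and U2OS is a human osteosarcoma line. Cells were grown in DMEM with 10% serum and RNA was sequenced from its 3′ ends (QuantSeq), so that a count does not grow with transcript length. HEK293T cells were labelled as treated with camptothecin (CPT, which traps topoisomerase I on DNA) at 100 nM, as ATM KO, or with the solvent DMSO, and U2OS cells as treated with CPT at 400 nM or DMSO, or as WT or ATM KO. ATM is a kinase that signals DNA breaks. Treatments lasted 24 h with 48 h of recovery, and the U2OS WT and ATM KO cells grew for 72 h without treatment. The 4 libraries labelled HEK293T ATM KO were read as the ATM inhibitor (Ku-55933, 9 µM), because the study's methods describe RNA sequencing of HEK293T cells for the inhibitor and not for a knockout. The U2OS ATM KO cells were made with CRISPR/Cas9 plasmids, and single clones were picked. Each library is called by its number in the labels.

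The 32 libraries hold 1232674 to 6362433 counts on genes, so that the floor of 3 counts lies between 2.43 and 0.472 counts per 1000000 counts on genes (CPM). Marker genes went against the labelled cell line in 14 libraries, 7 labelled U2OS and 7 labelled HEK293T. Over the 16 libraries with HEK293T markers, the 6 HEK293T markers summed to 928 to 1685 CPM, against 121 to 232 CPM in the other 16, although NEFL and PAX2 among them did not separate the lines. The summed U2OS markers (among them CD44 and TGFBI) lay between 57.4 and 233 CPM in the HEK293T-like and between 2413 and 5123 CPM in the U2OS-like libraries. Libraries 10, 12, 14 and 16 (labelled U2OS ATM KO) and 11, 13 and 15 (labelled U2OS WT) were HEK293T-like, as was library 17 (labelled HEK293T DMSO). Libraries 2, 4, 6 and 8 (labelled HEK293T CPT) and 3, 5 and 7 (labelled HEK293T DMSO) were U2OS-like, as was library 1 (labelled U2OS WT). If the labels of both blocks had been exchanged, the even-numbered HEK293T-like libraries would be CPT-treated HEK293T cells and the even-numbered U2OS-like libraries ATM KO U2OS cells, which was not tested. They are called by number here, and no direction for a treatment or a knockout is drawn from them. ATM itself, read at its 3′ end, which need not lie in the edited part, was not past the threshold in any comparison, with log2 fold changes from -0.31 to 0.32.

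The C/EBP-ATF response element, through which ATF4 binds with a C/EBP partner, was searched as TGATGNAAN on both strands of promoter windows from RefSeq (GRCh38.p14), each with 250 bases before and 50 bases after a transcript start. It was found in 3.61% of 35116 windows and, counted by gene, in 4.45% of 27305 genes. Of the 6 genes of the set with a window, ASNS, MTHFD1L and BCAT1 held it, in 5 of 14 windows. No window was available for SHMT2, PSPH, ALDH1L2 and PYCR1. The windows are shown because these letters are what the 3 genes have in common, with the match in capitals. In the ASNS window it begins at position -68 from the start site, in that of BCAT1 at -48 and in that of MTHFD1L at -129, and 2 more windows of MTHFD1L that overlap this one hold the same letters. A match describes letters and is no evidence of binding here.
ASNS, chr7:97872359-97872658, minus strand: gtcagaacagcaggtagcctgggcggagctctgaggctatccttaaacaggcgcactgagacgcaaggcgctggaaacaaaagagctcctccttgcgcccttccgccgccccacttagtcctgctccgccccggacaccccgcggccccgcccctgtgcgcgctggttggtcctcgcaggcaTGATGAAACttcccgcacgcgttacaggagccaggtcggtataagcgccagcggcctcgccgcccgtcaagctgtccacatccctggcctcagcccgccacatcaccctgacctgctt
BCAT1, chr12:24949052-24949351, minus strand: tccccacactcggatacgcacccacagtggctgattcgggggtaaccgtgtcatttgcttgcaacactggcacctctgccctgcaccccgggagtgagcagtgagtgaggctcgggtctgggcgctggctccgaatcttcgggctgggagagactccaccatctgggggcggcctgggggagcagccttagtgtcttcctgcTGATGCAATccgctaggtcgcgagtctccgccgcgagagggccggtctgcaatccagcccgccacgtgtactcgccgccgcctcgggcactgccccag
MTHFD1L, chr6:150866236-150866535, plus strand: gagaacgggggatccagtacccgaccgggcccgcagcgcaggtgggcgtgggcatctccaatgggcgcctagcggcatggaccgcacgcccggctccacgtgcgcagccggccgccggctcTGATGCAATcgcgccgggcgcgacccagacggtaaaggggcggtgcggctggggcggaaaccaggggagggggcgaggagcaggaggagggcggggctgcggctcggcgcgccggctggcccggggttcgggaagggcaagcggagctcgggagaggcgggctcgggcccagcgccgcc

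In DMSO-treated cells the set was mostly lower in U2OS than in HEK293T. Of the 10 genes, 6 were lower and 1 was higher in U2OS DMSO (libraries 30 to 33) than in HEK293T DMSO (libraries 22 to 25) at an adjusted p under 0.05 (edgeR quasi-likelihood test, Benjamini-Hochberg over 19739 genes) and a log2 fold change beyond 1. Over all genes 18.1% were lower and 21.8% higher by the same rule (39.9% in either direction), so that many genes differed between the lines. The median log2 fold change of the 10 was -1.36, against 0.01 over all genes tested. The DMSO libraries of the lines belong to different treatment experiments, so that line and experiment cannot be told apart.

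The largest differences were in ALDH1L2 and PSAT1. ALDH1L2, the mitochondrial dehydrogenase of formyl-folate, was at 5.87, 3.44, 3.81 and 5.53 CPM in the U2OS DMSO libraries and at 103.5, 125, 85.2 and 84.4 CPM in the HEK293T DMSO libraries. Its log2 fold change was -4.16 ± 0.18 (SE; adjusted p = 7.35e-20 by edgeR). PSAT1, the aminotransferase of serine synthesis, was at 37.7, 30.3, 24.6 and 19.2 CPM in U2OS and at 424, 327, 362.5 and 278.5 CPM in HEK293T (-3.43 ± 0.15, adjusted p = 3.28e-20 by edgeR). In both genes the lowest HEK293T library was far above the highest U2OS library.

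ASNS was lower in U2OS as well, at 46.6, 50.9, 52.4 and 59.8 CPM against 349, 372, 260.5 and 246.5 CPM (-2.31 ± 0.14, adjusted p = 1.86e-16 by edgeR). PHGDH, which opens serine synthesis, was at 88.6, 96, 82.03 and 109 CPM in U2OS and 298, 288.5, 267 and 304.5 CPM in HEK293T (-1.39 ± 0.11). SHMT2 had 36.1, 29.2, 27.8 and 22.8 CPM in U2OS and 104, 98.8, 89.2 and 75.8 CPM in HEK293T (-1.45 ± 0.13). MTHFD2, the most abundant transcript of the set in HEK293T, had 215, 201, 169.9 and 125 CPM in U2OS and 655, 572, 487.5 and 364 CPM in HEK293T (-1.33 ± 0.14). The groups of these 4 genes did not overlap, and the log2 fold changes of PHGDH, SHMT2 and MTHFD2 lay close together.

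The rest of the set differed less, and BCAT1 went the other way. No gene of the set overlapped between the lines, as held for 32.3% of all genes in the lower and 23.2% in the higher direction. BCAT1 was at 311, 279, 273 and 229 CPM in U2OS and at 145, 129.9, 139.5 and 119 CPM in HEK293T, a log2 fold change of 1.26 ± 0.11 (adjusted p = 3.48e-12 by edgeR). PSPH (-0.84 ± 0.13), PYCR1 (-0.50 ± 0.11) and MTHFD1L (-0.31 ± 0.13) did not reach the fold cutoff, although their adjusted p-values were under 0.05. By CPM, BCAT1 stood highest of the set in U2OS DMSO (273 ± 33.7 CPM, mean ± SD, n = 4), and ALDH1L2 lowest (4.66 ± 1.21 CPM). In HEK293T DMSO the order ran from MTHFD2 (519.7 ± 124.5 CPM), PSAT1 (348 ± 61.2 CPM), ASNS (307 ± 62.6 CPM) and PHGDH (289.5 ± 16.4 CPM) down to PSPH (49 ± 4.51 CPM) and MTHFD1L (46.6 ± 2.65 CPM). Between libraries MTHFD2 overlapped with PSAT1 and ASNS, PSAT1, ASNS and PHGDH overlapped with each other, and PSPH overlapped with MTHFD1L.

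**Figure D1:**
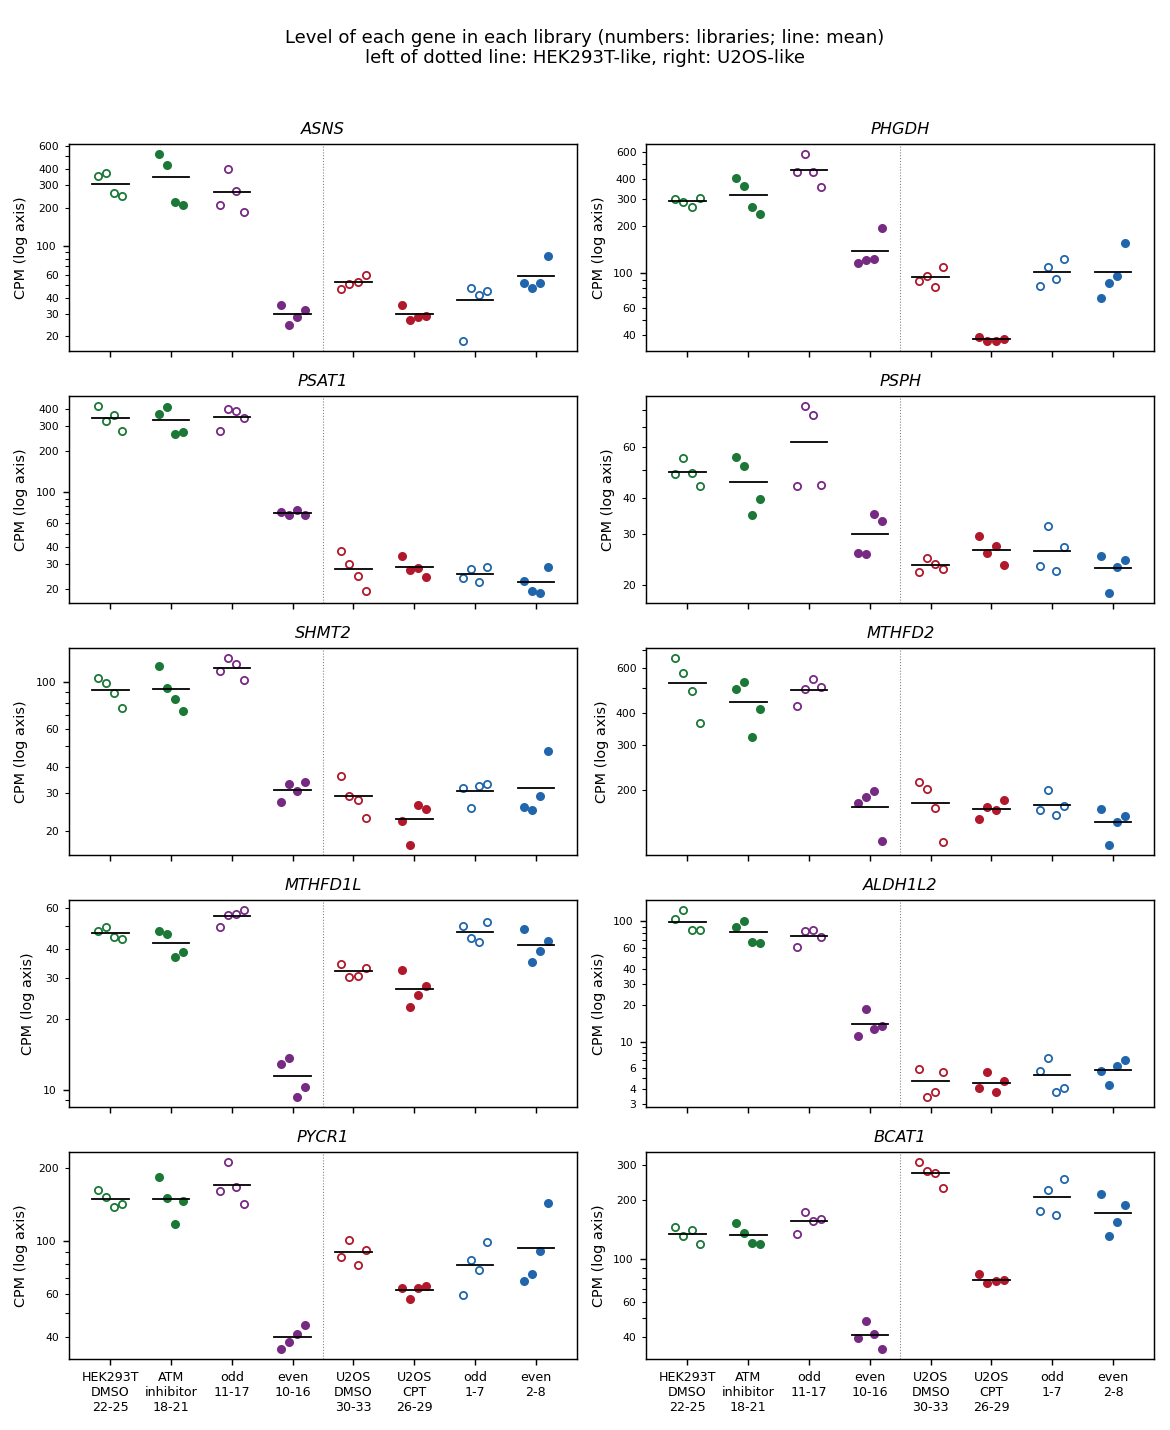
Level of each of the 10 genes in all 32 libraries, in CPM on a log axis. Each point is a library, the line is the mean of the 4, open points are DMSO or odd-numbered libraries (17 is labelled HEK293T DMSO and 1 U2OS WT) and filled points are treated or even-numbered ones. The even-numbered libraries 10 to 16 lie below libraries 11 to 17 in all 10 panels.

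In the HEK293T-like block the whole set was lower in the even-numbered libraries. All 10 genes were lower in libraries 10, 12, 14 and 16 (labelled U2OS ATM KO) than in libraries 11, 13 and 15 (labelled U2OS WT), past the threshold applied to all genes, of which 4.63% were lower by that rule and 13.3% were called in either direction. The choice of the 10 genes named this comparison, so that the count is a description. The median log2 fold change was -2.10, against 0.03 over 19271 genes. In each of the 4 even-numbered libraries all 10 genes lay below every odd-numbered library, 17 included. CPM did not overlap in the lower direction in 14.6% of all genes under this grouping. As these are bulk libraries, fewer cells with a transcript and less transcript per cell cannot be told apart.

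ASNS moved most. It was at 34.9, 24.7, 28.1 and 31.9 CPM in libraries 10, 12, 14 and 16, and at 209, 398, 267 and 184 CPM in libraries 11, 13, 15 and 17. The log2 fold change was -3.33 ± 0.18 (SE) against libraries 11, 13 and 15, and -3.18 ± 0.21 with library 17 among the odd-numbered ones. For the other genes of the set, the fold changes below also leave out library 17, although its CPM is listed last. With library 17 they ran from -2.47 (ALDH1L2) to -1.07 (PSPH). The lowest odd-numbered library still held several times the level of the highest even-numbered one. Among the odd-numbered libraries ASNS spread over more than a doubling, with library 13 the highest and 17 the lowest.

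In serine synthesis, PHGDH was at 116, 122, 123 and 194 CPM in the even-numbered and 446, 585, 445 and 355 CPM in the odd-numbered libraries. Its log2 fold change was -1.86 ± 0.15 without library 17 and -1.74 ± 0.16 with it. Library 16 stood above the other even-numbered libraries but below all odd-numbered ones. PSAT1 was at 72.6, 68.5, 74.8 and 69 CPM against 280.1, 402, 388 and 346 CPM (-2.37 ± 0.14), with the 4 even-numbered libraries within a narrow range. PSPH, the phosphatase of the last step, was at 25.7, 25.6, 35.2 and 33.3 CPM against 43.8, 82.9, 76.9 and 44.3 CPM (-1.21 ± 0.18). Its odd-numbered libraries fell into a higher pair, 13 and 15, and a lower pair, 11 and 17, and its fold change was the smallest of the set. Without library 13 PSPH no longer passed the fold cutoff (-0.99).

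In the mitochondrial folate pathway, SHMT2 was at 27.2, 33.02, 30.7 and 33.8 CPM in the even-numbered and 113, 130.3, 121 and 103 CPM in the odd-numbered libraries (-1.998 ± 0.13). MTHFD1L was at 12.9, 13.6, 9.28 and 10.2 CPM against 49.5, 56.01, 56.4 and 58.7 CPM (-2.28 ± 0.17). Both were tight within each group. MTHFD2 was at 177, 186, 198 and 126 CPM against 426, 494, 543 and 504 CPM (-1.55 ± 0.14), and ALDH1L2 at 11.02, 18.5, 12.8 and 13.5 CPM against 61.3, 82.8, 84.7 and 74.2 CPM (-2.49 ± 0.17). MTHFD2 thus had the smallest and ALDH1L2 the largest fold change of these 4 genes. MTHFD1L in the even-numbered libraries was below its level in every U2OS-like library.

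Outside those pathways, PYCR1 was at 35.5, 37.96, 41.3 and 44.8 CPM in the even-numbered libraries and 159.7, 212, 167 and 142 CPM in the odd-numbered ones (-2.21 ± 0.14). BCAT1 was at 39.5, 48.1, 41.6 and 34.7 CPM against 134, 173, 156 and 159 CPM (-1.96 ± 0.14). Library 17 is left out of both fold changes. Neither gene overlapped between the groups. Summed U2OS markers were 148 to 233 CPM in the even-numbered libraries and 57.4 to 66.5 CPM in libraries 11, 13 and 15. Of the 8 markers, 3 passed the threshold (ANXA1, CLU and CAV1), while CD44, S100A6, TGFBI, AXL and CRYAB averaged under 1 CPM in both groups. Reads in no gene made up 15.8 to 18.5% of the even-numbered and 9.39 to 10.99% of the odd-numbered libraries. The 10 proliferation genes summed to 4035 to 4591 CPM in the even-numbered libraries and to 3226 to 3417 CPM in libraries 11, 13 and 15. They did not move as 1, with log2 fold changes above 0 in 6 and below 0 in 4. Only the mitotic cyclin CCNB1 was past the threshold, and it was higher (1.02 ± 0.13). The part of these in the results was not tested.

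ASNS has a pseudogene, ASNSP1, that can share its reads, so that a split of reads between them is uncertain. It held 0.870 to 7.39% of the reads of both over all 32 libraries. ASNSP1 was at 0.429 ± 0.146 CPM in the even-numbered libraries (n = 4) and 20.7 ± 10.02 CPM in libraries 11, 13 and 15 (n = 3), in the same direction as ASNS. The other pseudogenes of the set had at most 4 counts each over all libraries.

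**Figure D2:**
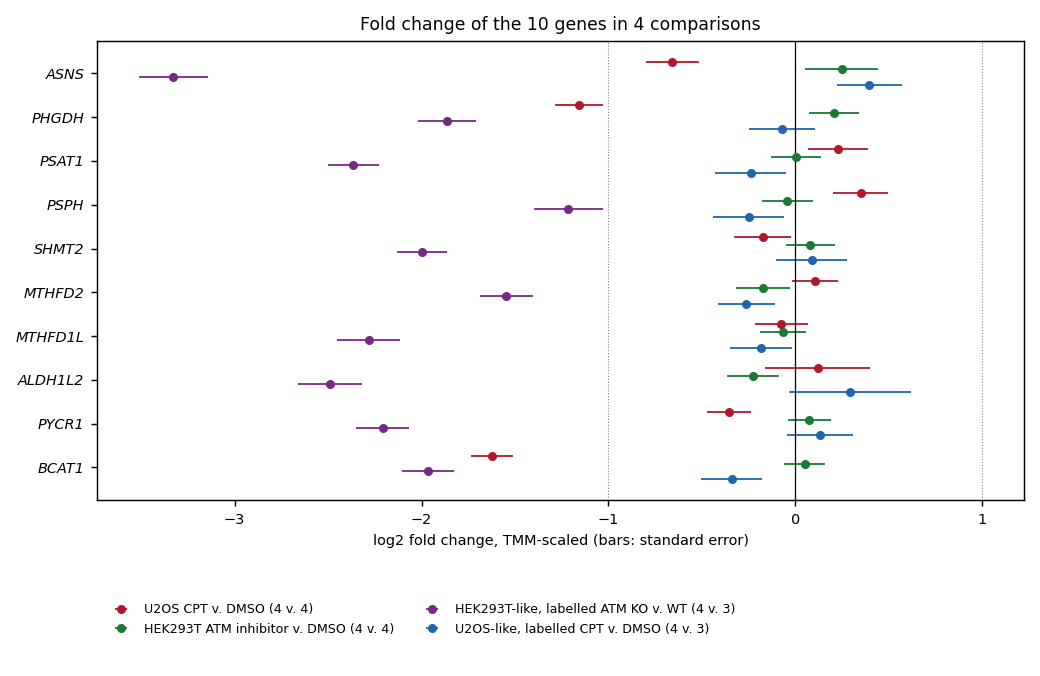
Log2 fold change of each gene in the 4 comparisons, with standard errors as bars and dotted lines at the cutoff of 1 in either direction. In the HEK293T-like block all 10 genes lie left of the lower line (-3.33 to -1.21), in U2OS CPT only BCAT1 and PHGDH do, and in the other comparisons none does.

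In U2OS cells treated with CPT (libraries 26 to 29 against DMSO libraries 30 to 33), BCAT1 and PHGDH were lower past the threshold, 2 of the 10 genes. Of all genes 5.5% were lower and 7.97% higher by the same rule, 13.5% in either direction. The median log2 fold change of the 10 genes was -0.13, against 0.01 over 19080 genes. This comparison too was named in the choice of the genes, and it shares its DMSO libraries with the comparison of the cell lines.

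BCAT1 was at 83.3, 75.1, 77.6 and 77.7 CPM after CPT, against 311, 279, 273 and 229 CPM in DMSO (-1.62 ± 0.11). PHGDH was at 38.8, 36.6, 36.7 and 38.05 CPM after CPT, against 88.6, 96, 82.03 and 109 CPM (-1.16 ± 0.13). In both genes the CPT libraries were far closer to each other than to any DMSO library. ASNS was at 35.01, 26.7, 28.1 and 29.01 CPM against 46.6, 50.9, 52.4 and 59.8 CPM (-0.66 ± 0.14), and PYCR1 at 63.6, 57.1, 63.4 and 64.9 CPM against 85.8, 101, 79.4 and 91.6 CPM (-0.35 ± 0.12). Neither reached the fold cutoff, although the groups did not overlap. In all, 4 of the 10 genes had CPT libraries below every DMSO library, as did 20.1% of all genes.

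The remaining 6 genes, of the serine and folate pathways, did not pass the threshold and their CPT and DMSO libraries overlapped. PSAT1 was at 34.7, 27.3, 28.1 and 24.3 CPM after CPT, with a 95% interval of the log2 fold change from -0.09 to 0.54. PSPH was at 29.4, 25.7, 27.4 and 23.4 CPM (interval 0.06 to 0.63). Both enzymes act after PHGDH in the same pathway. The intervals of these genes are not adjusted for the number of genes and are a description, also where 0 lies outside. SHMT2 was at 22.1, 17.1, 26.3 and 25.3 CPM after CPT (interval -0.48 to 0.13). MTHFD2 was at 154, 171, 166 and 181.5 CPM (interval -0.13 to 0.34), and MTHFD1L at 32.4, 22.6, 25.3 and 27.8 CPM (interval -0.35 to 0.20). ALDH1L2 had the fewest counts, at 4.12, 5.58, 3.81 and 4.68 CPM after CPT, and its interval, -0.43 to 0.67, was the widest.

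Fold changes rest on TMM scaling, and with library totals alone the median over all genes moved to -0.16 in U2OS CPT and to -0.21 in the comparison of the cell lines. The split of called genes then moved from 59.2% to 44.9% higher in U2OS CPT, and from 54.7% to 45.0% higher between the lines. BCAT1 and PHGDH passed under both scalings. Of the 8 U2OS markers, 5 were higher with CPT and 3 did not pass, with a summed level of all 8 of 4546 to 5047 CPM against 2413 to 2835 CPM in DMSO. Most of that sum was CLU, at 3221 ± 247 CPM after CPT and 1846 ± 211 CPM in DMSO (mean ± SD), which did not reach the fold cutoff (0.97 ± 0.12, SE). Of 10 proliferation genes, 4 were lower (MCM2, CCNA2, MKI67 and MCM5), with a summed level of 1847 to 2306 CPM after CPT and 3731 to 4154 CPM in DMSO. The part of either in the levels of the 10 genes was not tested.

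Under the ATM inhibitor in HEK293T (libraries 18 to 21 against 22 to 25) none of the 10 genes passed, as for all 18413 genes (0.0% called; 1017 at an unadjusted p under 0.05 in the edgeR quasi-likelihood test, 2 called by the likelihood ratio test and 0 by DESeq2). Log2 fold changes of the 10 lay between -0.23 (ALDH1L2) and 0.25 (ASNS), with a median of 0.03. At an unadjusted p under 0.05 there were 0 of the 10 and 5.52% of all genes, and the groups overlapped in each of the 10 (without overlap and lower were 1.96% of all genes). The interval for ASNS was -0.13 to 0.63 and that for BCAT1 -0.16 to 0.26. Both are unadjusted and given as a description.

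The inhibitor libraries split instead among themselves, and the DMSO libraries did so to a lesser degree. ASNS was at 524, 428, 219.7 and 208 CPM in libraries 18, 19, 20 and 21. PHGDH was at 406, 362, 264.5 and 241 CPM and PSAT1 at 372, 418, 264 and 273 CPM in the same order. Libraries 18 and 19 were the higher pair in all 3. MTHFD2 was at 494, 528, 321 and 413.5 CPM, SHMT2 at 119.7, 93.7, 83.04 and 73.3 CPM and ALDH1L2 at 90.1, 99.8, 67.1 and 66.5 CPM in these libraries. BCAT1 (152, 135, 120.1 and 119 CPM) and MTHFD1L (47.8, 46.4, 36.7 and 38.7 CPM) differed less between the pairs. PSPH was at 55.1, 51.2, 34.8 and 39.7 CPM and PYCR1 at 183, 151, 117 and 145 CPM. Over the 10 genes, the mean log2 difference from the DMSO mean was 0.23 and 0.13 in libraries 18 and 19, and -0.36 and -0.30 in libraries 20 and 21. Among the DMSO libraries it was 0.15 and 0.11 in libraries 22 and 23, and -0.06 and -0.19 in libraries 24 and 25. In libraries 20 and 21, 8 and 7 of the 10 genes were below every DMSO library, as were 25.9% and 16.6% of all genes. Reads in no gene made up 32.5 and 29.9% of libraries 20 and 21, 26.5 and 26.2% of libraries 18 and 19, and 23.6 to 30.4% of the DMSO libraries, and their part in this was not tested. ATF4 split in the same libraries, at 1431, 1069, 658 and 634 CPM against 852, 891, 838 and 870.3 CPM in DMSO. Not all genes of the list linked to ATF4, described below, did so. SLC6A9 was at 42.3, 30.4, 14.05 and 12.3 CPM in libraries 18 to 21, but STC2 at 301, 304, 274 and 308 CPM.

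In the U2OS-like block, none of the 10 genes passed between libraries 2, 4, 6 and 8 (labelled HEK293T CPT) and 3, 5 and 7 (labelled HEK293T DMSO), where 4.46% of 18515 genes did. At an unadjusted p under 0.05 in the edgeR quasi-likelihood test there were 2 of the 10 and 23.1% of all genes. DESeq2 and the likelihood ratio test also called 0 of the 10 past the threshold. Log2 fold changes ran from -0.34 (BCAT1) to 0.40 (ASNS), with a median of -0.13. ASNS was at 51.9, 47.1, 51.5 and 84.2 CPM in libraries 2, 4, 6 and 8, and at 18.4, 47.2, 42.2 and 45.3 CPM in libraries 1, 3, 5 and 7. Library 8 was the highest and library 1, the only one labelled U2OS WT, the lowest of the 8. PHGDH was at 69.8, 86.1, 95.6 and 156 CPM against 82.6, 109.5, 91.7 and 123 CPM, and PYCR1 at 68.1, 72.7, 90.4 and 143 CPM against 59.3, 83.1, 75.8 and 98.97 CPM. Library 8 was the highest of the 8 libraries in these 2 genes and in SHMT2. The groups of libraries 2, 4, 6 and 8 and of 3, 5 and 7 did not separate in any of the 10 genes, where 8.86% of all genes were lower and 8.68% higher without overlap. Over the 4 even-numbered and the 4 odd-numbered libraries, PSAT1 ranged over 18.6 to 28.7 and 22.4 to 28.9 CPM, and PSPH over 18.8 to 25.1 and 22.4 to 32.02 CPM. MTHFD2 ranged over 121 to 168 and 159 to 199 CPM, MTHFD1L over 35.1 to 48.7 and 42.7 to 51.8 CPM, and ALDH1L2 over 4.33 to 7.05 and 3.83 to 7.36 CPM. BCAT1, with the lowest fold change, ranged over 131 to 212.5 and 168 to 253 CPM.

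**Figure D3:**
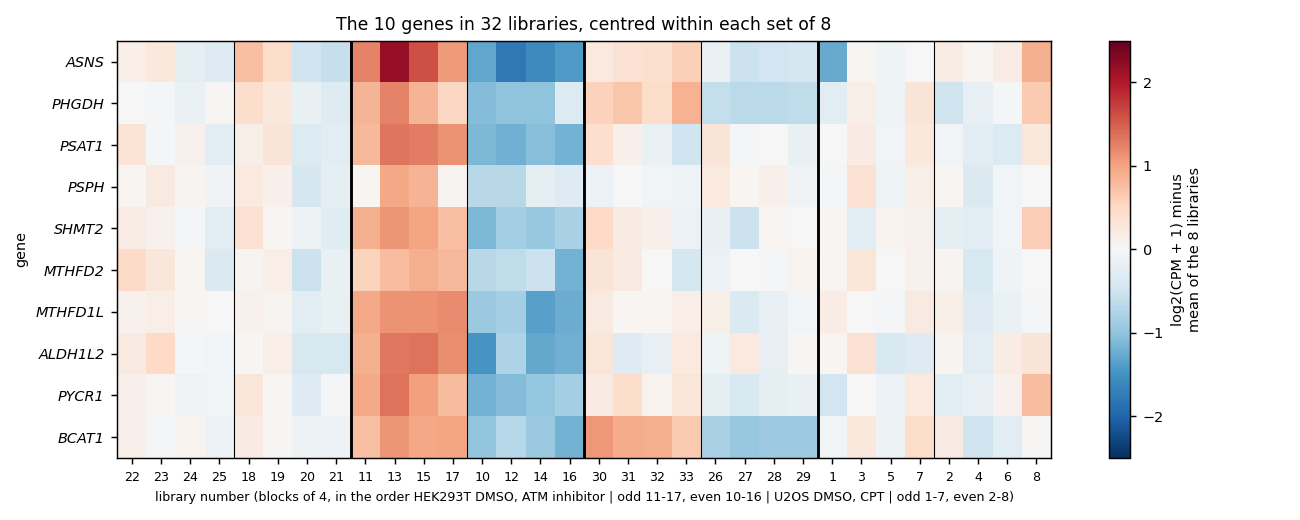
Each gene (rows) in each of the 32 libraries (columns), as log2(CPM + 1) minus the mean of its set of 8 libraries. Red is above and blue below that mean; columns are ordered by set, with thick lines between sets of 8. The 10 rows change together between libraries 11 to 17 and 10 to 16, BCAT1, PHGDH and ASNS fall in libraries 26 to 29, and libraries 18 and 19 stand above 20 and 21 within the inhibitor group.

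The 10 genes followed each other over all 32 libraries, and less closely without the HEK293T-like block. With the mean of each set of 8 libraries removed, Pearson's r of log2(CPM + 1) between pairs of the 10 genes had a median of 0.83 over 45 pairs and 32 libraries, and ranged from 0.52 to 0.95. Without the 8 HEK293T-like block libraries the median was 0.45 and the range -0.01 to 0.84. The points share libraries and their depth, and differences between the groups of each comparison stay in them. As the choice of the genes named these comparisons, the values are a description. With ASNS, PYCR1 had the highest r of the set (0.95, and 0.81 without that block) and PSPH the lowest (0.75). Without that block PSPH was at 0.25, PSAT1 at 0.23 and MTHFD2, the lowest, at 0.20.

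Of 9903 genes with a mean log2 level above 3, the 5 outside the set that were most like ASNS were ATF4 (r = 0.96), YARS1 (0.94), PCK2 (0.94), MMS19 (0.92) and EIF4EBP1 (0.92). ATF4 was at 290.3, 247, 308 and 332 CPM in libraries 10, 12, 14 and 16 and at 976, 1491, 959.9 and 767 CPM in libraries 11, 13, 15 and 17. Over the 24 libraries outside that block its r with ASNS was 0.93, and that of MMS19 0.69. In U2OS DMSO ATF4 was at 164 ± 32.1 CPM and in HEK293T DMSO at 863 ± 22.97 CPM (mean ± SD, n = 4 each).

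Of a list of 29 genes linked to ATF4, 20 were lower and 1 was higher in the HEK293T-like block, with a median log2 fold change of -1.498. Of all genes 4.63% were lower there and 13.3% passed in either direction. As the list was chosen with earlier results of these data known, its counts and values are a description. The lower ones included SLC7A11, the cystine transporter, at 21.04 ± 3.86 CPM against 239.6 ± 84.8 CPM (-3.58 ± 0.20). SLC6A9, a glycine transporter, was at 1.68 ± 0.682 CPM against 28.5 ± 10.4 CPM, and INHBE at 0.862 ± 0.400 CPM against 15.8 ± 12.2 CPM. FGF21 also passed but had no count in the even-numbered libraries and 0.634 ± 0.279 CPM in the others, near the floor. The gene that was higher is GDF15, a stress-induced cytokine, named after its value was seen (70.5 ± 19.97 against 11.6 ± 12.7 CPM). In U2OS CPT 3 of 28 were higher and 3 lower, against 7.97% and 5.5% of all genes, with a median of -0.04. There GDF15 (3.63 ± 0.16) and ATF3 (2.38 ± 0.18) were higher and SLC7A11 (-1.89 ± 0.13) and SLC6A9 (-1.61 ± 0.28) lower. Under the ATM inhibitor 0 of 28 passed (8 at an unadjusted p under 0.05, edgeR quasi-likelihood test, as were 5.52% of all genes). In the U2OS-like block only GDF15 passed (1.15 ± 0.18), where 4.46% of all genes did. In U2OS DMSO against HEK293T DMSO 13 were lower and 3 higher of 28, against 18.1% and 21.8% of all genes, with a median of -0.88.

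The other genes of these pathways were taken from 6 lists. In the HEK293T-like block 4 of 61 tested genes were lower and 1 higher, where 4.63% of all genes were lower and 13.3% passed in either direction, and their median log2 fold change was -0.35. The lower ones were CTH, which makes cysteine from cystathionine (-2.17 ± 0.22), AUH and BCAT2 of branched-chain breakdown (-1.39 ± 0.21 and -1.13 ± 0.22), and the folate carrier SLC19A1 (-1.37 ± 0.17). The higher one was ALDH1L1, which had no count in libraries 11, 13 and 15 and at most 1.23 CPM in the even-numbered ones, so that no fold is given. None of the serine and glycine list, of the asparagine list or of the proline list passed there (0 of 8, 0 of 10 and 0 of 7 by the edgeR quasi-likelihood test, with 2, 6 and 4 at an unadjusted p under 0.05, as were 42.3% of all genes).

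In U2OS CPT 2 of 60 were lower and 2 higher, against 5.5% and 7.97% of all genes. MTAP of methionine salvage was among the lower ones (-1.19 ± 0.14). The folate receptor FOLR1 (1.52 ± 0.13) and OAT, an aminotransferase of ornithine (1.12 ± 0.17), were higher. In the U2OS-like block 1 of 60 was lower and the other 59 did not pass, where 4.46% of all genes passed. Under the ATM inhibitor 0 of 61 passed (5 at an unadjusted p under 0.05, edgeR quasi-likelihood test, as were 5.52% of all genes).

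Between the lines, 12 of 61 were lower and 7 higher in U2OS DMSO, against 18.1% and 21.8% of all genes. GLDC, a glycine cleavage enzyme, had no count in the 4 U2OS DMSO libraries, which allows up to 1.03 CPM in the shallowest, and 21.4 ± 5.96 CPM in HEK293T DMSO. CTH (-3.18 ± 0.18) and GLUL, glutamine synthetase (-2.57 ± 0.14), were lower, and thymidylate synthase TYMS (2.03 ± 0.11) was higher. ALDH1L1, the cytosolic counterpart of ALDH1L2, was at 11.3 ± 2.77 CPM in U2OS and 0.292 ± 0.338 CPM in HEK293T.

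Several of the 10 have a related enzyme, often in another compartment of the cell, and the ratio of both within a library depends little on its depth. As log2 of (CPM + 1), the ratio of MTHFD2 to MTHFD2L was 2.69 ± 0.23 in U2OS DMSO and 4.46 ± 0.22 in HEK293T DMSO (SD, n = 4; these ratios on TMM-scaled CPM). That of BCAT1 to BCAT2 was 5.64 ± 0.19 and 3.44 ± 0.38. The MTHFD2 ratio was thus lower in U2OS, and the BCAT1 ratio higher. SHMT2 to SHMT1 was 0.69 ± 0.15 in U2OS and 1.38 ± 0.28 in HEK293T, MTHFD1L to MTHFD1 -1.98 ± 0.08 and -1.28 ± 0.12, and PYCR1 to PYCR3 3.45 ± 0.06 and 4.17 ± 0.40. ALDH1L2 to ALDH1L1 was -1.13 ± 0.50 and 6.21 ± 0.17, a value that rests on the pseudocount in HEK293T. Each of these ratios had p = 0.0286 in an exact two-sided permutation test over the 4 and 4 libraries, the smallest it can give, and an adjusted p of the same size over the 7 pairs tested.

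In the comparisons that the choice of the genes named, ratios are given without a test. In U2OS CPT the ratio of BCAT1 to BCAT2 was at 4.11 ± 0.41 after CPT against 5.60 ± 0.18, and that of MTHFD1L to MTHFD1 at -1.64 ± 0.13 against -1.97 ± 0.08. In the HEK293T-like block every ratio was lower in the even-numbered libraries. SHMT2 to SHMT1 was -0.08 ± 0.38 (n = 4) against 1.57 ± 0.47 (n = 3), and PYCR1 to PYCR3 2.72 ± 0.06 against 4.15 ± 0.32. Of the related genes, SHMT1 was at -0.35 and MTHFD1 at -0.87 in log2 fold change.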

How the data were processed

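Counts per gene for 32 libraries of HEK293T and U2OS cells were analysed. The authors deposited raw counts from Lexogen's QuantSeq pipeline for forward libraries with molecular identifiers. They are not normalized, and the aligner, genome build and annotation are not given in the sources used here. The study's methods describe 4 independent repeats per condition. The 5 summary rows (reads in no gene, 9.39 to 39.9% of a library) and 92 spike-in rows (3 counts in all) were left out. Symbols matched 56104 of 60107 identifiers. Groups came from the labels. All columns were used (0 left out).

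Tests used edgeR 4.0.16 in R 4.3.3 (TMM, quasi-likelihood test, Benjamini-Hochberg over all genes tested). A gene was tested where 2 or more libraries held over 1 count of it. The threshold was an adjusted p under 0.05 together with a log2 fold change beyond 1 in either direction, as in the study's methods. The script was tested on simulated data. For libraries 1 to 17, the fit took those libraries of the labelled groups that shared cell line markers (4 against 3). CPM is per 1000000 counts on genes. The 3-count floor and all errors cover these libraries only. Alternatives covered scaling, filters, DESeq2 1.42.0, the likelihood ratio test and left-out libraries. Named were all 10 genes, their pseudogenes and paralogs, ATM, at most 4 genes past the threshold per list and comparison, and the 5 genes most like ASNS. The members and lists were chosen with earlier results of these data known, and planned tests of paralog ratios in U2OS CPT and under the ATM inhibitor are not reported, since the choice named those comparisons. Some genes of the lists and pairs are not reported here, although counts over a list include them.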

Additional observations from a re-analysis of the deposited data

Results flagged for a closer look

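2 of the 80 sets of 4 libraries (10 genes in 8 sets) held a library far from the other 3 by Dixon’s criterion, and chance gives about 5%. PHGDH was at 194 CPM in library 16 (labelled U2OS ATM KO, HEK293T-like), against 116 to 123 CPM in the other 3 even-numbered libraries of the block. ASNS was at 84.2 CPM in library 8 (labelled HEK293T CPT, U2OS-like), against 47.2 to 51.9 CPM in libraries 2, 4 and 6.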

How the results depend on the processing

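Without the fold cutoff 6093 genes and 4 of the 10 passed in U2OS CPT (ASNS and PYCR1 joined), 1 gene under the ATM inhibitor, 6178 in the HEK293T-like block, 1934 in the U2OS-like block and 12259 between the lines, where PSPH (-0.84), PYCR1 (-0.50) and MTHFD1L (-0.31) joined. With edgeR's filterByExpr, 1652 genes passed in U2OS CPT, 1615 in the HEK293T-like block and 5090 between the lines. Under the ATM inhibitor the count was 2 with the likelihood ratio test, 2 without a filter and 1 with library totals, a setting chosen after seeing the data, under which PSPH joined between the lines (-1.07). With all libraries taken by label, whatever their cell line markers, 631 genes and 6 of the 10 passed for the label ATM KO against WT, and 1 of the 10 for the label HEK293T CPT against DMSO (PSAT1, -3.01). Leaving out 1 library in turn gave 2414 to 2547 genes in U2OS CPT (2 of the 10 each time), 0 to 14 under the ATM inhibitor (14 without library 21, 1 without library 18), 2196 to 2494 in the HEK293T-like block (9 to 10 of the 10), 673 to 971 in the U2OS-like block (0 of the 10) and 7514 to 7732 between the lines (7 of the 10). No log2 fold change of the 10 genes that had passed changed sign under any alternative that was run. No paired analysis was possible because the groups compared share no replicate numbers in the labels. Depth limits ALDH1L2 in U2OS most, which had the fewest counts of the set there.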
